A study of Rattus norvegicus with 12 samples.

Results

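*Slc7a5*, the gene of the large neutral amino acid transporter LAT1, was set beside 9 genes of amino acid supply and of the ATF4 response in the anterior pituitary glands of estrogen-treated male rats of 4 congenic lines. *Slc7a5* itself was chosen from its values on these arrays, with its pattern over the lines known, so its levels are given as a description and were not tested. The question asked of the other 9 genes (*Slc3a2*, *Atf4*, *Ddit3*, *Trib3*, *Asns*, *Psat1*, *Phgdh*, *Sesn2* and *Chac1*) was whether they followed *Slc7a5* over lines and arrays. Every probe set whose platform annotation gives exactly 1 of these 10 symbols was taken, which gave 13 of the 31099 probe sets on the array. Of these, 11 were bright enough to be tested and 2 were dim.

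Each line is ACI in background with COP (Copenhagen) alleles introduced at 1 locus of pituitary response to estrogen. The COP locus is on chromosome 6 for the line Ept1, on chromosome 10 for Ept9, and on chromosome 3 for both Ept2 and Ept6. All glands came from males that had received a subcutaneous implant of 5 mg of diethylstilbestrol (DES), a synthetic estrogen, at 9 weeks of age and BrdU at 50 mg/kg 4 hours before the glands were taken at 21 weeks. Each line was represented by 3 expression arrays of total RNA from whole anterior lobe. No untreated and no ACI array was analysed here, so the lines could only be set against each other, and what they share (the ACI background, the sex and the DES) cannot be seen in these comparisons. How far the arrays of a line are independent is uncertain, because 3 biological replicates are given in the series design but fewer than 3 in the notes of the samples, which count 3 males. Part of the spread behind the p-values may therefore be technical.

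LAT1 imports leucine and other large neutral amino acids in exchange for glutamine, and it reaches the plasma membrane only as a heterodimer with the heavy chain 4F2hc, the product of *Slc3a2*. When a cell runs short of an amino acid, the kinase GCN2 phosphorylates the initiation factor eIF2, which lowers general translation while the mRNA of *Atf4* is translated more. ATF4 then activates genes of amino acid import and synthesis, among them *Asns*, *Psat1* and *Phgdh*, together with stress regulators such as *Ddit3*, *Trib3*, *Sesn2* and *Chac1*. Because ATF4 is set in large part by translation, the mRNA of *Atf4* is a poor guide to its activity, and the mRNAs of its targets are commonly read instead. Lactotrophs, the prolactin cells of the anterior pituitary, are secretory cells that multiply under estrogen.

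The promoters of 3 members are shown because they carry the letters most often searched for in this pathway, the ATF4 site TGATGNAA (read as TTNCATCA on the other strand) in *Chac1* and *Trib3* and the E-box CACGTG, a motif bound by MYC and related factors, in *Slc7a5*. Each is the stretch of 250 bases before the annotated start of the gene in RefSeq for the GRCr8 assembly, written 5′ to 3′ on the strand of the gene, with the matched letters in capitals. *Slc7a5* is at chr19:66872413-66872662 on the minus strand, *Chac1* at chr3:126795881-126796130 on the plus strand and *Trib3* at chr3:161275534-161275783 on the minus strand.
Slc7a5: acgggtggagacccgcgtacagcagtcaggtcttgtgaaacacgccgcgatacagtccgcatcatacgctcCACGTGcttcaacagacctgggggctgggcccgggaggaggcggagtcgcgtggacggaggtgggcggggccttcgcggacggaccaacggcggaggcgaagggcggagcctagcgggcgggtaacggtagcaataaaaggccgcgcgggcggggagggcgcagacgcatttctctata
Chac1: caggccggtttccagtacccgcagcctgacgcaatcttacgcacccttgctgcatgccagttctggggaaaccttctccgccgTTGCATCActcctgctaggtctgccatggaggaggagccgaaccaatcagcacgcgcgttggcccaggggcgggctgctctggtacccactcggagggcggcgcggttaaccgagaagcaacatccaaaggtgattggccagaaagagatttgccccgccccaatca
Trib3: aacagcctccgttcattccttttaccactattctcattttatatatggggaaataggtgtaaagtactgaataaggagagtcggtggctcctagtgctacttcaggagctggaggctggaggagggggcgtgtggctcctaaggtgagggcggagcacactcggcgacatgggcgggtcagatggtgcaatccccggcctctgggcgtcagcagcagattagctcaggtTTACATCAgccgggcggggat
The E-box of *Slc7a5* begins 179 bases before the start, the ATF4 letters of *Chac1* begin 167 bases before it and those of *Trib3* 21 bases before it. Both strands were searched in the 11 windows of the 10 genes, *Slc3a2* having 2. The ATF4 letters were found in *Chac1* and *Trib3* alone, against 3.4% of 33469 such windows of all genes, and the E-box in *Slc7a5* and *Atf4*, against 5.59%. The cAMP response element TGACGTCA, present in 1.59% of windows, was in none of the 11. No member window held more than 1 of these motifs. A match describes letters only, and its absence from a window of this length says nothing of the factor.

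*Slc7a5* (1387280_a_at, chromosome 19) gave signals of 755, 589 and 636 on the Ept1 arrays, 428, 527 and 544 on the Ept2 arrays, 395, 325 and 316 on the Ept6 arrays, and 264, 260 and 229 on the Ept9 arrays. Every Ept1 array lay above every Ept2 array, every Ept2 array above every Ept6 array and every Ept6 array above every Ept9 array. These signals are linear intensity values that the authors scaled to the same trimmed mean on every array. The means were 660 ± 85.6 in Ept1, 500 ± 62.5 in Ept2, 345 ± 43.2 in Ept6 and 251 ± 19.3 in Ept9 (SD, n = 3 each), so that the highest mean was 2.63 times the lowest. Such a full separation of the 4 lines was seen in 7 of 18607 tested probe sets, or 0.0376%, which is given without a test since *Slc7a5* was chosen with this pattern known. In whole glands, fewer cells of a type and less RNA per cell cannot be told apart, for this gene as for the others.

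On the log2(signal + 16) scale, on which all differences below are given, *Slc7a5* was 0.88 higher in Ept1 than in the mean of the other 3 lines (95% interval 0.64 to 1.11) and 0.36 higher in Ept2 (0.12 to 0.59). It was lower by the same measure in Ept6, at -0.33 (-0.56 to -0.09), and in Ept9, at -0.91 (-1.14 to -0.67). Ept1 minus Ept9 was 1.34 (1.05 to 1.63), a fold of 2.53 on this scale. The steps between neighbouring lines were 0.39 for Ept1 minus Ept2, 0.51 for Ept2 minus Ept6 and 0.43 for Ept6 minus Ept9, each with a standard error of 0.131. Ept2 and Ept6 both carry COP alleles on chromosome 3 and were separated by 1 of these steps. All of these values describe a gene chosen for its readout and carry no test.

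*Slc3a2* (1398771_at, chromosome 1), which encodes the heavy chain that LAT1 needs, gave 5429, 5197 and 5378 in Ept1, 4776, 5343 and 5137 in Ept2, 5556, 5384 and 5511 in Ept6, and 4920, 5408 and 5607 in Ept9. The arrays of neighbouring lines overlapped throughout, and the order of the means (Ept6, Ept1, Ept9, Ept2, from the highest down) was not that of *Slc7a5*. The means were 5334 ± 122 in Ept1, 5085 ± 287 in Ept2, 5484 ± 89.2 in Ept6 and 5312 ± 353 in Ept9 (SD, n = 3 each). All 3 Ept6 arrays lay above all 3 Ept2 arrays, but the differences among the lines did not pass the threshold (limma F test, adjusted p = 0.821). Between the lines at the ends of the *Slc7a5* order, Ept1 minus Ept9, the difference was 0.01 with a 95% interval of -0.17 to 0.19. For *Slc7a5*, which was chosen with its pattern known, the same difference was 1.34 (1.05 to 1.63). Setting the genes side by side is a description and carries no test.

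**Figure D1:**
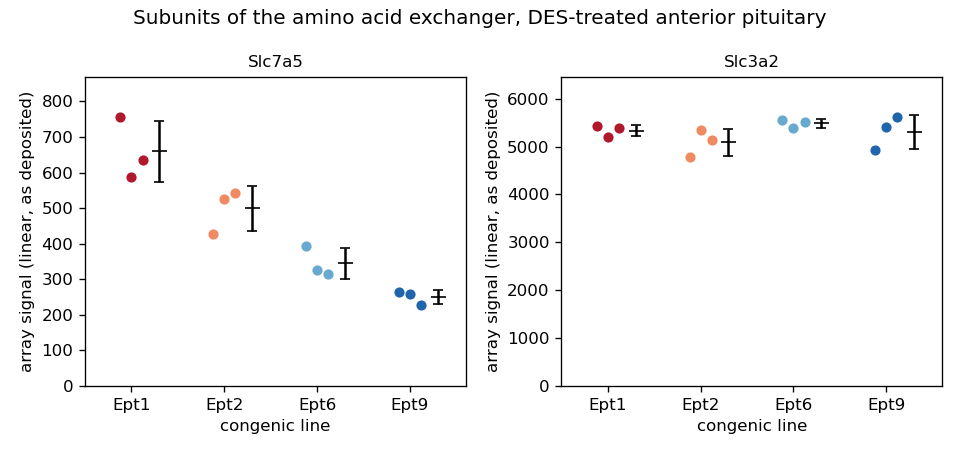
Array signal (linear scale from 0, as deposited) of *Slc7a5* on the left and *Slc3a2* on the right in the lines Ept1, Ept2, Ept6 and Ept9; each point is 1 array, and the black bar beside each line is the mean with its SD over 3 arrays. The *Slc7a5* means step down over the lines at 660, 500, 345 and 251 with no overlap of arrays. The *Slc3a2* means stay between 5085 and 5484, and lines next to each other in their order overlap.

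None of the 10 tested probe sets of the other 9 genes differed among the 4 lines (limma F test, Benjamini-Hochberg adjustment over all 18607 probe sets, threshold 0.05), where 0.994% of all tested probe sets did. At an unadjusted p under 0.05 there were 3 of 10, against 14.1% of all tested. The contrasts of single lines against the other 3 called 0 of 10 in Ept1 (0.193% of all tested), 0 in Ept2 (0.801%), 0 in Ept6 (0.161%) and 0 in Ept9 (0.683%). Their counts at an unadjusted limma p under 0.05 were 0 of 10 in Ept1 (7.49% of all tested), 4 in Ept2 (14.4%), 2 in Ept6 (10.7%) and 4 in Ept9 (11.0%). None of the 10 separated all 4 lines as *Slc7a5* did. All 3 arrays lay outside the range of the 9 others in 0 of 10 probe sets in Ept1 (1.14% of all tested), in 1 in Ept2 (*Phgdh*, background 3.6%), in 0 in Ept6 (1.93%) and in 1 in Ept9 (*Psat1*, background 2.69%).

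The line with the highest mean was Ept2 for 6 of the 10 probe sets, Ept6 for 3, Ept9 for 1 and Ept1 for none, although Ept1 held the highest *Slc7a5* mean. The lowest mean fell in Ept9 for 6 of the 10, the line in which *Slc7a5* was lowest too. The median difference of the 10 from the other 3 lines was 0.01 in Ept1, beside 0.01 over all tested probe sets, and 0.18 in Ept2, beside 0.01. It was -0.02 in Ept6, beside 0.01, and -0.23 in Ept9, beside -0.01. The estimate was above 0 for 6 of the 10 in Ept1, 8 in Ept2, 3 in Ept6 and 2 in Ept9. The contrasts share arrays, so these counts are not independent of each other, and *Trib3* enters them with both of its tested probe sets. The shares of all tested probe sets with the same highest line, lowest line or sign were not computed, so the counts do not show that the members followed *Slc7a5*.

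**Figure D2:**
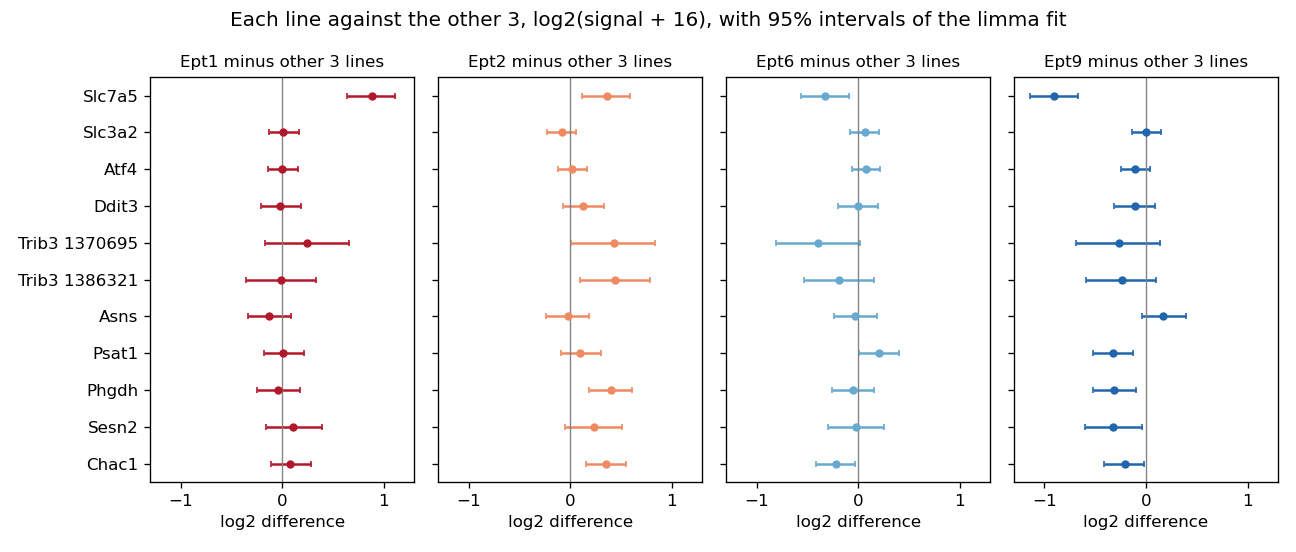
Log2 difference of each line from the mean of the other 3 (horizontal axis, log2(signal + 16)) for the 11 tested probe sets, 1 panel per line; points are limma estimates and bars their 95% intervals. *Slc7a5* lies farthest from 0 in Ept1 (0.88) and in Ept9 (-0.91), while the Ept1 estimates of the other probe sets lie near 0, with intervals that all cross it.

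*Atf4* (1367624_at, chromosome 7), the transcription factor at the centre of the response, gave 13011, 12599 and 13365 in Ept1, 12499, 13864 and 13056 in Ept2, 14418, 13204 and 13021 in Ept6, and 12304, 11832 and 12681 in Ept9. The ranges of Ept1, Ept2 and Ept6 overlapped, and the Ept9 arrays were the low end without being apart from all of the others. The means were 12992 ± 383, 13140 ± 687, 13548 ± 759 and 12272 ± 425 in Ept1, Ept2, Ept6 and Ept9 (SD, n = 3 each), and the adjusted p of the F test was 0.699. Ept1 minus Ept9 was 0.08, with an interval of -0.09 to 0.26. *Ddit3* (1369590_a_at, chromosome 7), which encodes CHOP, a factor induced downstream of ATF4 under lasting stress, gave 626, 645 and 724 in Ept1, 782, 685 and 686 in Ept2, 637, 605 and 776 in Ept6, and 657, 639 and 596 in Ept9. No line was apart and the adjusted p was 0.75. For *Ddit3*, Ept1 minus Ept9 was 0.07 (-0.17 to 0.31).

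*Chac1* (1389573_at, chromosome 3), whose product degrades glutathione and whose promoter holds the ATF4 letters shown above, gave 691, 607 and 766 in Ept2, against 604, 561 and 617 in Ept1, 473, 564 and 482 in Ept6, and 500, 477 and 546 in Ept9. Of the 3 Ept2 arrays, 2 lay above all of the others, and the Ept2 array at 607 lay between 2 Ept1 arrays. The means were 688 ± 79.2 in Ept2, 594 ± 29.4 in Ept1, 506 ± 49.9 in Ept6 and 508 ± 34.8 in Ept9 (SD, n = 3 each). In Ept2 the probe set averaged 688, against 536 in the other 9 arrays, a difference of 0.35 (SE 0.088, interval 0.16 to 0.55) that did not pass the threshold (limma, adjusted p = 0.108, and 0.054 to 0.299 over the alternatives). The F test over the 4 lines had an unadjusted p of 0.00624 and an adjusted p of 0.176. Between the lines with COP alleles on chromosome 3, where *Chac1* lies, Ept2 minus Ept6 was 0.43 (0.19 to 0.67). This interval was not adjusted for the number of genes or pairs of lines and carries no test. Ept2 and Ept6 also differed in the *Gapdh* control of RNA quality described below (0.38 against 0.14), with which *Chac1* had an r of 0.89. Whether *Chac1* lies inside either segment was not tested.

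*Trib3*, which encodes a pseudokinase that is induced by ATF4 and restrains it, also lies on chromosome 3 and was read by 3 probe sets. The brighter of its 2 tested probe sets (1386321_s_at) gave 198, 247 and 250 in Ept2, against 138, 174 and 236 in Ept1, 161, 188 and 139 in Ept6, and 172, 176 and 126 in Ept9. Its mean was 231 ± 29.3 in Ept2 and 182 ± 49.4, 163 ± 24.7 and 158 ± 27.9 in Ept1, Ept6 and Ept9 (SD, n = 3 each), with overlap between Ept2 and Ept1. The other tested probe set (1370695_s_at) gave 153, 215 and 193 in Ept2, against 161, 175 and 164 in Ept1, 111, 107 and 129 in Ept6, and 176, 74.4 and 142 in Ept9. In that probe set the Ept9 arrays spread the most and reached into the ranges of all other lines. The difference of Ept2 from the other 3 lines was 0.44 (SE 0.156) in the brighter and 0.43 (SE 0.188) in the other, and neither passed the threshold (adjusted p = 0.228 and 0.336). The remaining probe set (1370694_at) was dim, with signals from 34.4 to 78.4, and was not tested.

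*Phgdh* (1367811_at, chromosome 2), the enzyme that commits a glycolytic intermediate to serine synthesis, gave 707, 643 and 628 in Ept2, against 518, 545 and 503 in Ept1, 474, 625 and 474 in Ept6, and 484, 412 and 463 in Ept9. The 3 Ept2 arrays lay above the 9 others, with the Ept6 array at 625 just below them, and the Ept1 and Ept9 arrays did not overlap. The Ept2 mean of 660 ± 41.9 (SD, n = 3) stood against 500 in the other 9 arrays, and the line means were 522 ± 21.5 in Ept1, 524 ± 87.4 in Ept6 and 453 ± 36.7 in Ept9 (SD, n = 3 each). The difference of 0.40 (SE 0.095, interval 0.19 to 0.61) had an adjusted p of 0.102 in limma. It passed the threshold with the stricter filter on dim probe sets (adjusted p = 0.0485) and without Ept6 replicate 2, the array at 625 (adjusted p = 0.04), and over all alternatives the adjusted p ran up to 0.238. In Ept9 the difference from the other 3 lines was -0.31 (adjusted p = 0.24).

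*Psat1* (1372665_at, chromosome 1), the aminotransferase of the next step of serine synthesis, gave 1358, 1201 and 1251 in Ept9, against 1649, 1387 and 1519 in Ept1, 1490, 1484 and 1808 in Ept2, and 1643, 1821 and 1578 in Ept6. The 3 Ept9 arrays lay below the 9 others, and the other 3 lines overlapped. The probe set averaged 1270 ± 80.6 in Ept9 (SD, n = 3), against 1598 in the other 9 arrays, a difference of -0.32 (SE 0.089, interval -0.52 to -0.13). It did not pass the threshold (limma, adjusted p = 0.184, and 0.0624 to 0.478 over the alternatives). *Phgdh* and *Psat1*, which act in succession, thus had different lines at the top, Ept2 for *Phgdh* and Ept6 for *Psat1*, and both had Ept9 at the bottom.

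*Asns* (1387925_at, chromosome 4), asparagine synthetase, gave 3998, 3737 and 3744 in Ept1, 4439, 3320 and 4463 in Ept2, 4198, 4268 and 3651 in Ept6, and 4498, 4318 and 4582 in Ept9. All 3 Ept9 arrays lay above all 3 Ept1 and all 3 Ept6 arrays. The Ept2 arrays reached from below the Ept1 arrays into the Ept9 range, and the Ept6 arrays overlapped those of Ept1. The means were 3826 ± 148, 4074 ± 653, 4039 ± 338 and 4466 ± 135 in Ept1, Ept2, Ept6 and Ept9 (SD, n = 3 each). The differences did not pass the threshold (limma F test, adjusted p = 0.676). Ept1 minus Ept9 was -0.22 (-0.48 to 0.04).

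*Sesn2* encodes sestrin 2, a leucine sensor that restrains the growth kinase complex mTORC1. Its tested probe set (1391607_at, chromosome 5) gave 976, 934 and 710 in Ept9, against 1228, 993 and 1055 in Ept1, 1278, 1020 and 1186 in Ept2, and 980, 1192 and 892 in Ept6. The Ept9 arrays were low, and overlapped only with Ept6. The mean was 873 ± 143 in Ept9, 1092 ± 122 in Ept1, 1161 ± 131 in Ept2 and 1021 ± 155 in Ept6 (SD, n = 3 each). The difference of Ept9 from the other 3 lines was -0.32 (SE 0.125), which did not pass the threshold (limma, adjusted p = 0.382). Its other probe set (1396901_at) was dim, at 2.4 to 55.2, and was not tested.

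**Figure D3:**
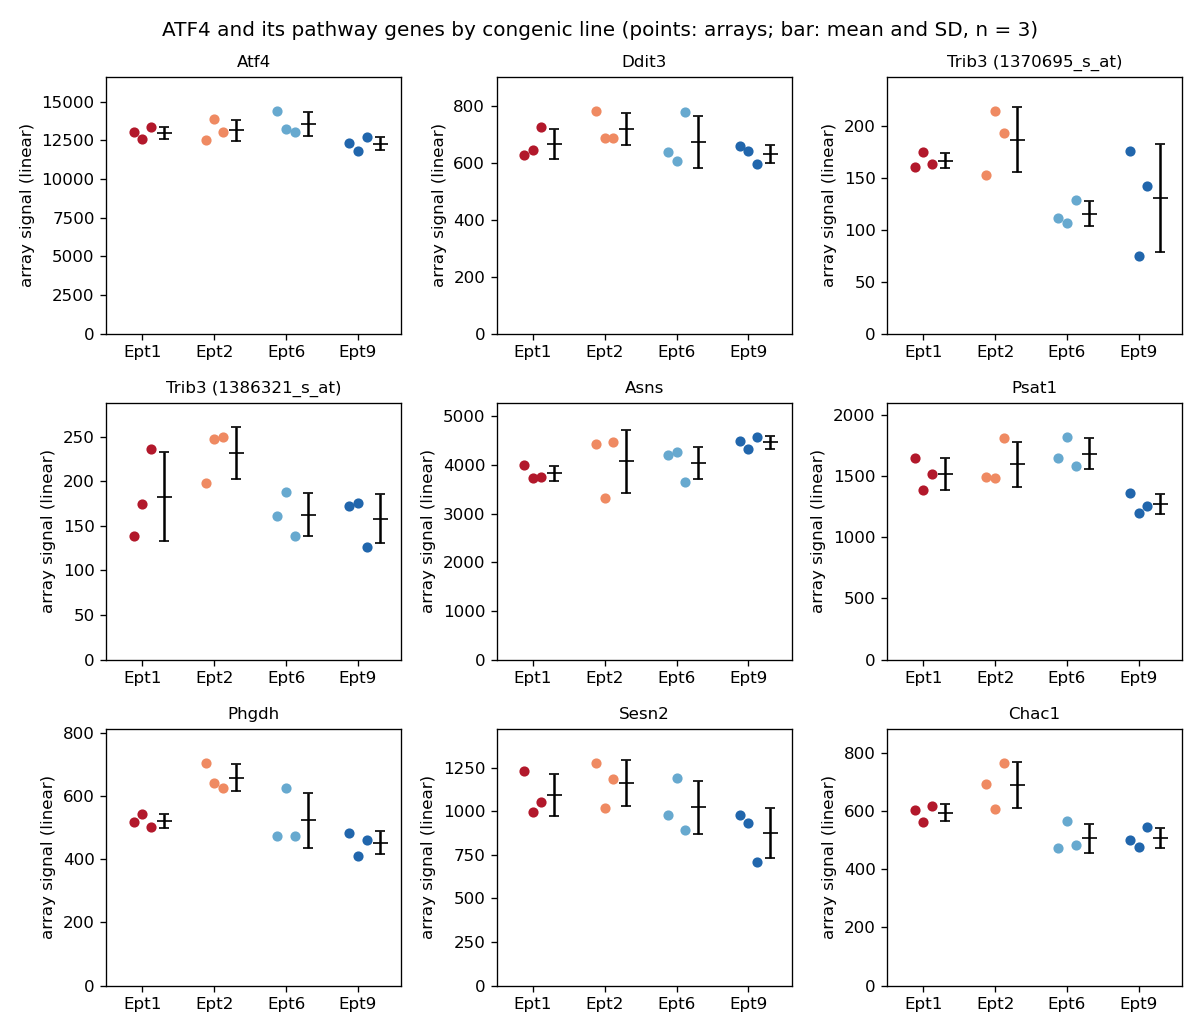
Array signal (linear scale from 0, 1 scale per panel) of *Atf4*, *Ddit3*, both tested *Trib3* probe sets, *Asns*, *Psat1*, *Phgdh*, *Sesn2* and *Chac1* in the 4 lines; points are arrays and the black bar is the mean with its SD over 3 arrays. *Phgdh* has its 3 Ept2 arrays (628 to 707) above the 9 others and *Psat1* its 3 Ept9 arrays (1201 to 1358) below the 9 others, and no panel shows the descent over Ept1, Ept2, Ept6 and Ept9 of *Slc7a5*.

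Over the 12 arrays, 1 of the 10 probe sets, that of *Sesn2*, had a Pearson r of at least 0.6 to *Slc7a5* (r = 0.62, Spearman's rho = 0.71), and 3.42% of all tested probe sets reached that value. Just under it were *Chac1* (r = 0.59, rho = 0.63) and the *Trib3* probe set 1370695_s_at (r = 0.56). The others were at 0.48 for *Psat1*, 0.43 for *Phgdh*, 0.42 for the *Trib3* probe set 1386321_s_at, 0.39 for *Atf4* and 0.21 for *Ddit3*. *Slc3a2* was at -0.1 and *Asns* at -0.51. None of the 10 was at -0.6 or below, where 3.23% of all tested probe sets were. The median r of all tested probe sets was 0.04. The arrays of 1 line share their genotype and the lines form 4 separate clusters along *Slc7a5*, so these values are a description and carry no p. Over the 4 line means r was 0.86 for *Sesn2*, 0.72 for *Chac1*, and 0.8 (1370695_s_at) and 0.59 (1386321_s_at) for *Trib3*. It was 0.59 for *Phgdh*, 0.58 for *Ddit3*, 0.51 for *Psat1*, 0.44 for *Atf4*, -0.29 for *Slc3a2* and -0.91 for *Asns*. With 4 points each, these values too are only a description. Without the 2 arrays farthest from the *Slc7a5* median, Ept1 replicate 1 and Ept9 replicate 3, r over the arrays kept was 0.33 for *Sesn2*, 0.66 for *Chac1*, and 0.65 for both *Trib3* probe sets. On the same arrays it was 0.47 for *Phgdh*, 0.43 for *Atf4*, 0.29 for *Psat1*, 0.22 for *Ddit3*, -0.03 for *Slc3a2* and -0.46 for *Asns*. The *Sesn2* value thus depended on the arrays used, and it was 0.47 without Ept9 replicate 3 alone and up to 0.72 in other alternatives. Leaving out the farthest arrays narrows the range of *Slc7a5*, and the share of all tested probe sets past 0.6 was not computed for the arrays kept.

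Whether a probe set followed *Slc7a5* from array to array inside the lines was tested on the deviations from the line means, with an exact two-sided permutation test over every arrangement of the arrays within lines. None of the 10 relations passed, before or after adjustment over the 10. The within-line r was 0.53 for *Atf4* (p = 0.163, adjusted 0.702, exact permutation test), 0.49 for *Psat1* (p = 0.208, adjusted 0.702), 0.3 for *Slc3a2* (p = 0.39, adjusted 0.779) and 0.24 for *Sesn2* (p = 0.479, adjusted 0.799). *Chac1*, near the cut-off over all arrays, was at -0.14 (p = 0.723, adjusted 0.909, exact permutation test), and *Asns* at 0.0 (p = 0.998, adjusted 0.998). *Phgdh* was at -0.42 (p = 0.267, adjusted 0.702, exact permutation test) and *Ddit3* at -0.41 (p = 0.281, adjusted 0.702). The *Trib3* probe sets were at 0.04 (1370695_s_at) and 0.14 (1386321_s_at), with adjusted p of 0.998 and 0.909 in the same exact permutation test. With 3 arrays per line, a moderate relation inside the lines could be missed.

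**Figure D4:**
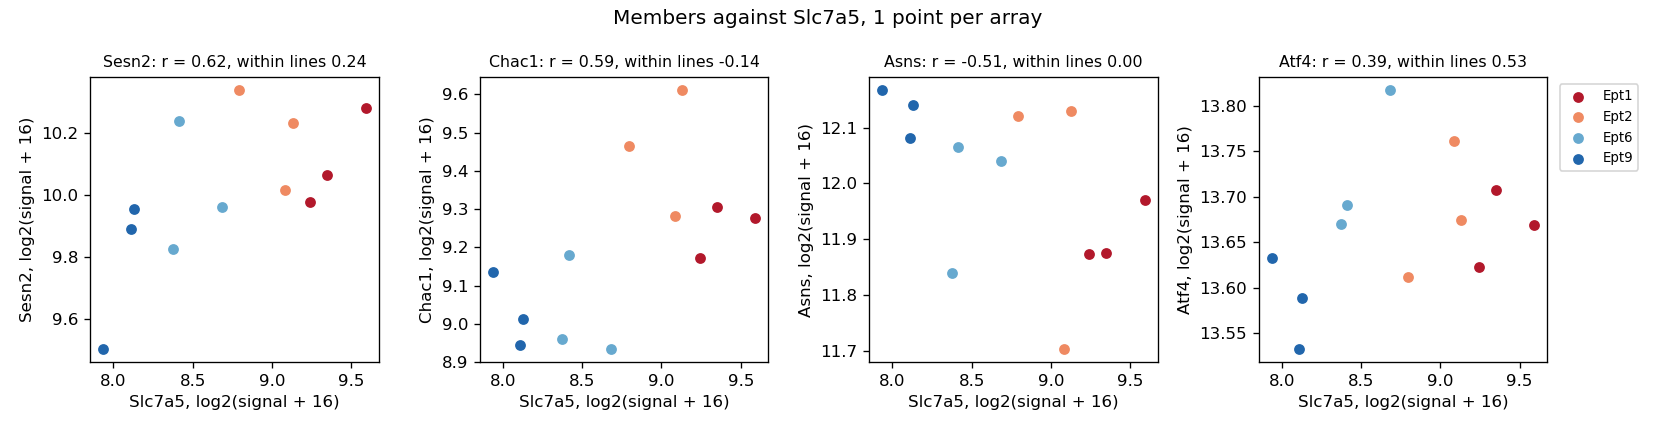
Log2(signal + 16) of *Sesn2*, *Chac1*, *Asns* and *Atf4* (vertical axes) against that of *Slc7a5* (horizontal axis), 1 point per array, coloured by line. *Slc7a5* parts the 4 lines along the horizontal axis; r over the arrays is 0.62 for *Sesn2* and 0.59 for *Chac1*, with no relation inside lines past the test (r = 0.24 and -0.14), and for *Asns* (r = -0.51) the 3 Ept1 arrays lie below the 3 Ept9 arrays while Ept2 spreads over both.

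RNA quality moved with part of these patterns. For *Gapdh*, the signal of the 3′ control probe set minus that of the 5′ control averaged 0.38 on the log2 scale in Ept2 (0.31 to 0.42), against 0.25 in Ept1, 0.14 in Ept6 and 0.21 in Ept9, and the Ept2 arrays lay above all of the others. Its correlation over the 12 arrays was 0.89 with *Chac1*, 0.75 with *Phgdh*, 0.65 and 0.68 with the *Trib3* probe sets 1370695_s_at and 1386321_s_at, 0.63 with *Sesn2*, 0.29 with *Ddit3*, 0.22 with *Psat1*, 0.13 with *Asns*, -0.11 with *Atf4* and -0.76 with *Slc3a2*. Inside the lines it was 0.64 with *Chac1*, 0.65 with *Phgdh*, 0.18 and 0.3 with the same *Trib3* probe sets, 0.73 with *Sesn2*, -0.14 with *Ddit3*, 0.72 with *Psat1*, 0.69 with *Asns*, -0.25 with *Atf4* and -0.7 with *Slc3a2*. For *Slc7a5* it was 0.47 over the arrays and 0.03 inside the lines. Its part in the higher Ept2 signals was not tested.

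Of 106 further genes of amino acid supply and stress in 6 lists, 103 were on the array and 91 were bright enough to test, each by its brightest probe set. Among the 4 lines 1 of the 91 differed by the F test, where 0.994% of all tested probe sets did. No gene passed the F test in the lists of tRNA synthetases (17 tested), of serine, glycine and proline metabolism (14), of stress transcription factors and their targets (18), of eIF2 kinases and eIF2B (14) and of leucine sensing and mTORC1 (15). At an unadjusted limma p under 0.05 there were 8 of these 78 genes, or 10.3%, against 14.1% of all tested probe sets. Among them *Eif2ak4*, the gene of GCN2, averaged 1725 in Ept2, against 2677 in Ept1, 2400 in Ept6 and 2471 in Ept9 (limma F test, adjusted p = 0.232). *Slc7a11*, *Gdf15* and *Fgf21*, often used as readouts of ATF4, were dim on these arrays and were not tested.

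The list of amino acid transporters held both genes that passed a line contrast, 2 of its 13 tested genes. Of the 91 listed genes 1 passed in Ept2 (background 0.801%), 1 in Ept6 (0.161%) and 1 in Ept9 (0.683%), *Slc38a5* in the contrasts of Ept2 and Ept6 and *Slc43a2* in that of Ept9. *Slc38a5* (1387970_at, chromosome X), a transporter of glutamine and other neutral amino acids, gave 485, 585 and 522 in Ept2, against 789, 741 and 757 in Ept1, 916, 866 and 874 in Ept6, and 610, 653 and 697 in Ept9. The 4 lines did not overlap, in an order (Ept6, Ept1, Ept9, Ept2, from the highest down) unlike that of *Slc7a5*, to which its r was -0.04. It differed among the lines (limma F test, adjusted p = 0.0152), lower in Ept2 by -0.51 (SE 0.073, adjusted p = 0.0169) and higher in Ept6 by 0.46 (SE 0.073, adjusted p = 0.0478). The Ept2 call was lost in 3 of 21 alternatives, with no filter on dim probe sets (adjusted p = 0.0662), without Ept2 replicate 1 (0.057) and without Ept2 replicate 3 (0.0782). The Ept6 call was lost in 16 of 21 alternatives, among them 11 of the 12 that left out an array, all but Ept2 replicate 2, where the adjusted p was 0.0551 to 0.276.

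*Slc43a2* (1384756_at, chromosome 10), which encodes LAT4, a carrier of branched-chain amino acids and phenylalanine, gave 410, 472 and 468 in Ept9, against 697, 750 and 594 in Ept1, 853, 724 and 654 in Ept2, and 618, 522 and 581 in Ept6. The Ept9 arrays lay below the 9 others. Its mean was 450 ± 34.5 in Ept9 and 680 ± 79.5, 744 ± 101 and 574 ± 48.3 in Ept1, Ept2 and Ept6 (SD, n = 3 each). It fell in Ept9 by 0.54 on the log2 scale (SE 0.102, limma, adjusted p = 0.0446), a call that was lost in 16 of 21 alternatives, with 11 of the 12 arrays left out in turn (adjusted p 0.0543 to 0.22, all but Ept2 replicate 1) and with the replicate number as a block (0.0951). Another probe set of the gene (1379736_at) did not repeat the call, at -0.14 in Ept9 (limma, adjusted p = 0.7). Its Ept9 signals were 516, 475 and 585, and an Ept6 array lay below them at 442. The gene lies on the chromosome of the Ept9 segment, and whether it lies inside the segment was not tested. Its r to *Slc7a5* was 0.75, and *Nprl2* (0.73), a subunit of a complex that inhibits mTORC1, and *Vars1* (0.65), valyl-tRNA synthetase, were the other listed genes at 0.6 or above, 3 of 91 in all, beside 3.42% of all tested probe sets. At -0.6 or below were 2 of the 91, beside 3.23% of all tested, *Got1* (-0.8), an aminotransferase of aspartate, and *Glul* (-0.67), glutamine synthetase. *Got1* averaged 899 in Ept1, 919 in Ept2, 1272 in Ept6 and 1232 in Ept9 (limma F test, adjusted p = 0.249), and *Glul* 1202, 1137, 1563 and 1583 (adjusted p = 0.122).

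**Figure D5:**
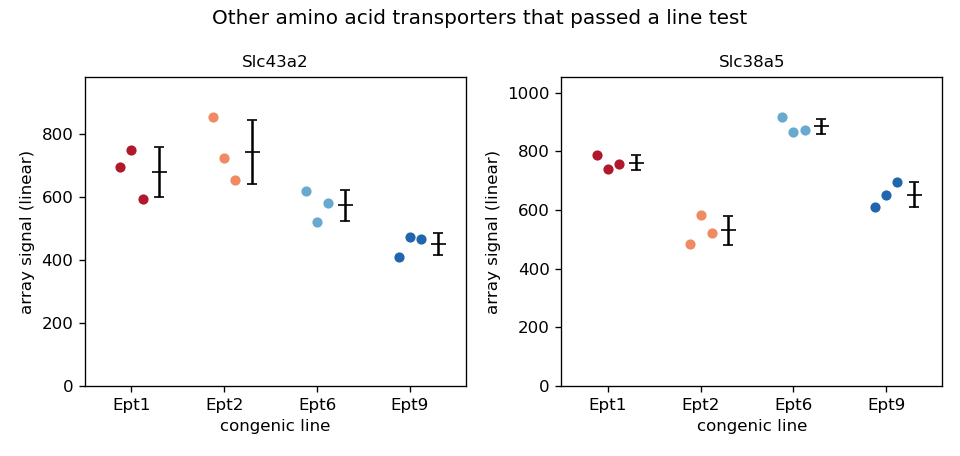
Array signal (linear scale from 0) of the transporter genes *Slc43a2* (1384756_at) and *Slc38a5* in the 4 lines; points are arrays and the black bar is the mean with its SD over 3 arrays. *Slc43a2* is lowest in Ept9 (410 to 472) and *Slc38a5* is lowest in Ept2 (485 to 585) and highest in Ept6 (866 to 916).

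The genes whose pattern was most like that of *Slc7a5* over the 12 arrays came from outside the pathway lists and are described by their r alone. The 5 with the highest r were *Tmem151a* (0.92), *Mal2* (0.89), a protein of membrane traffic, *Fgfr1* (0.87), a fibroblast growth factor receptor, *Trhr* (0.87), the receptor of thyrotropin-releasing hormone, and *Mta1* (0.87), a chromatin regulator. *Mal2* averaged 451 ± 112 in Ept1, 329 ± 190 in Ept2, 68.1 ± 17.9 in Ept6 and 29.0 ± 25.1 in Ept9 (SD, n = 3 each), so that its Ept9 mean lay under the signal of 65.2 that marked a probe set as dim. *Trhr* averaged 3729, 3732, 2947 and 2737 in Ept1, Ept2, Ept6 and Ept9, high in the pair of lines in which *Slc7a5* was high. Inside the lines r was 0.83 for *Trhr*, 0.76 for *Mta1*, 0.68 for *Fgfr1*, 0.35 for *Tmem151a* and 0.06 for *Mal2*. The deviations inside lines are part of the r by which these genes were picked, and their relations inside lines were not tested. The 5 with the lowest r were *Cers5* (-0.92), a ceramide synthase, *Retreg3* (-0.92), *Eif1a* (-0.91), a translation initiation factor, *Eno3* (-0.91), an enolase, and *Serping1* (-0.91), an inhibitor of complement. *Cers5* averaged 1117, 1387, 1534 and 1857 and *Eno3* 1037, 1397, 1460 and 1919 in Ept1, Ept2, Ept6 and Ept9.

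The tissue label was checked on marker genes, with the sum of each list taken over all of its genes on the array, dim ones included. Of 7 pituitary hormone genes 6 were bright enough to test, with *Pomc* dim, and their summed signal was 112191 to 126745 in Ept1, 128963 to 144817 in Ept2, 105594 to 112730 in Ept6 and 113279 to 120469 in Ept9, with an r of 0.24 to *Slc7a5*. Of 6 stroma genes 5 were tested, with *Pdgfrb* dim, and their sum was 2177 to 2947 in Ept1, 1806 to 3952 in Ept2, 2417 to 3544 in Ept6 and 3865 to 4090 in Ept9, an r of -0.69. The list did not move as a whole, since *Col1a2*, which makes up most of the sum, was at -0.7 and *Col3a1* at -0.49, but *Col1a1* was at -0.04, *Dcn* at 0.05 and *Lum* at 0.24. Of 7 leukocyte genes 5 were tested, with *Cd3e* dim, and the r of their sum was 0.55. There *Cd74*, the largest part of the sum, was at 0.71 and *Csf1r* at 0.5, while *Ptprc* was at -0.14, *Aif1* at -0.22 and *Cd68* at -0.62. The r of the sum was -0.03 for endothelium, -0.31 for red blood cells and 0.18 for folliculostellate and stem cells. In that last list *Aldh1a1* was at 0.65, *Sox2* at 0.53 and *S100b* at 0.25, while *Anxa1* was at -0.12 and *Cdh1* at -0.68. Its sum was 1974 to 2610 on the Ept2 arrays and at most 1794 in Ept1, 1592 in Ept6 and 1881 in Ept9. The part of these cell types in the *Slc7a5* signal, or in the Ept2 signals of the other members, was not tested.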

How the data were processed

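Total RNA of 12 anterior pituitary samples from DES-treated male rats was hybridized to expression arrays, 3 per congenic line. The deposited values are linear intensity values (signals), which the authors scaled to a trimmed mean of about 500 on every array (500.18 to 500.19, with 2% trimmed at each end). Signal software and background correction: not given in the sources used here. Precision is limited by the number of arrays. Correlations between arrays were 0.966 to 0.983 and no pair held identical values.

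From the deposited intensities log2(signal + 16) was computed, 57 control probe sets were left out, and 12435 dim probe sets under the 40th percentile (65.2 on the signal scale) were dropped, leaving 18607. The 4 lines were compared with limma 3.58.1 in R 4.3.3 (moderated F test, and contrasts of a line with the mean of the 3 others), and p-values were adjusted over all tested probe sets by Benjamini-Hochberg. Fold changes understate the change of dim genes. Pearson correlations and exact permutation tests were computed with numpy 2.4.6, and Spearman's rho with scipy 1.17.1. Of the limma tests, the contrast of Ept1 was tried on simulated data, without the dim filter. By the platform annotation 20826 probe sets have 1 symbol, 436 have several and 9780 have none. Promoters and chromosomes came from RefSeq for GRCr8.

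The 10 members and the gene lists were chosen with earlier results of these data known. Named were all member probe sets, listed genes called by a test, and the 5 genes with the highest and the 5 with the lowest r to *Slc7a5*; *Eif2ak4*, *Nprl2*, *Vars1*, *Got1*, *Glul* and single marker genes were named after their values were seen. The settings varied were the pseudocount (1 or 64), the scaling (quantile or median), the dim filter (none, or the 60th percentile), a replicate block, a trended eBayes prior, array weights, Spearman's rho, and the arrays used (each left out in turn).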

Additional observations from a re-analysis of the deposited data

How the results depend on the processing

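Over 21 alternatives, 12 of which left out 1 array, the 4 line differences of *Slc7a5* kept their direction and moved by less than the spread between arrays in 84 of 84 comparisons. The count of other member probe sets called stayed at 0 for the F test, Ept1, Ept6 and Ept9. For Ept2 it was 1 (*Phgdh*) when filtered at the 60th percentile, and 0 to 1 over the fits without 1 array, 1 without Ept6 replicate 2. The count with r of at least 0.6 to *Slc7a5*, 1 as reported, was 0 with median centring, 2 with the replicate block, 2 with Spearman's rho, and 0 to 3 over the fits without 1 array: 0 without Ept2 replicate 3 or Ept6 replicate 3, 3 without Ept6 replicate 2, and 2 without Ept1 replicate 1 or 2, Ept2 replicate 1, Ept6 replicate 1, or Ept9 replicate 1 or 3. The count of listed genes called by the F test, 1 as reported, was 0 under the replicate block, 0 unfiltered, 2 when filtered at the 60th percentile, 3 under the eBayes trend, and 0 to 1 over the fits without 1 array (0 without Ept2 replicate 3). The cause was not tested. Over all tested probe sets, deviations of arrays with the same replicate number in different lines had a median correlation of 0.016 (-0.137 to 0.0787). For arrays with different numbers it was -0.0127 (-0.103 to 0.11). No pairing by number was thus seen over the whole array, but a pairing limited to part of the genes could be missed. With the block, the *Slc43a2* call in Ept9 (adjusted p = 0.0951) and the *Slc38a5* call in Ept6 (0.138) were lost. A second *Slc7a5* probe set could not be tried because the array has 1.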
